A study of Homo sapiens with 6 samples.

Results

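STEAP1, STEAP2, STEAP3, STEAP4, TFRC, SLC11A2, FTH1, FTL and IREB2 are described here across a time course of androgen exposure in LNCaP cells. These 9 genes, the STEAP metalloreductases and the central genes of cellular iron uptake, storage and regulation, were chosen by name, were each found as 1 line of the deposited table, and were 9 of its 17990 genes. The series asks which transcripts androgen regulates and when. LNCaP is an androgen-responsive human prostate cancer cell line. Before the experiment the cells were held in medium with hormone-stripped serum. There were 6 libraries of total RNA: 1 of untreated cells (0 h) and 1 each of cells given 10 nM dihydrotestosterone (DHT), a potent natural androgen, for 3, 6, 12, 24 and 48 h. All groups thus share the cell line and the hormone-depleted medium, and no untreated library later than 0 h was analysed here, so hours in that medium and hours with DHT cannot be told apart.

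STEAP proteins sit in membranes and pass electrons from cytosolic NADPH through heme to ferric iron or cupric copper, which makes the reduced metals available to transporters. STEAP1, first described as an antigen on the surface of prostate cancer cells, lacks the NADPH-binding reductase domain that its 3 relatives STEAP2, STEAP3 and STEAP4 carry. Iron bound to transferrin enters cells through the transferrin receptor TFRC, is reduced in endosomes, a step for which STEAP3 is known in red cell precursors, and leaves them through the transporter SLC11A2. Surplus iron is stored in ferritin, built from the FTH1 and FTL chains. When iron is scarce, iron regulatory proteins, one of them encoded by IREB2, bind stem-loops in messenger RNAs, which blocks translation of ferritin and protects the TFRC message from decay.

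The libraries held 13179917 to 20587956 counts over listed transcripts, and a level is given in CPM, the count per 1000000 counts of that total. Changes are log2 ratios of (CPM + 1) to the 0 h library, which understates the change of low genes, and a gene is called higher or lower from 2-fold on. With 1 library per group no difference could be set against a spread between replicates, there are no p-values, and the 95% intervals in the text cover counting error only. Transcripts of low GC content were on the whole higher and those of high GC content lower at 6 to 48 h. At 3 h transcripts of low GC content were on the whole lower, with the trend at -0.35 for STEAP2, beside 1.21 at 6 h. Most of the changes named are therefore also given with the trend of the same time subtracted. Levels of the 8 luminal prostate markers summed to 8423 to 22043 CPM, with none near 0. All 4 basal markers (KRT5, KRT14, TP63, KRT15) had at most 10 counts in each library, as had 5 of 6 leukocyte and macrophage markers (all but CD68), and COL1A2 and DCN among the fibroblast markers. Of the erythroid markers HBB was at 0 throughout, HBA1 had at most 1 count and SLC4A1 6 to 15. The 6 fibroblast markers, mostly COL1A1, summed to 32.5 to 72.4 CPM, with the lowest sum at 24 h, and their part in the results was not tested.

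Of the 9 genes, 1 was called higher at 3 h, 4 at 6 h, 4 at 12 h, 4 at 24 h and 5 at 48 h. Over the 11916 genes whose mean count reached 20 the called shares were 0.747, 15.3, 11, 10.5 and 15% higher at those times. None of the 9 was called lower at 3 or 6 h and 1 each at 12, 24 and 48 h, against 0.864, 3.01, 7.99, 10.8 and 7.33% of all genes. The 1 call at 3 h was STEAP4 at 1.02, from a ratio of 2.75 (1.61 to 4.91) without the added 1 CPM. It was lost with a pseudocount of 5 (0.48) and with the authors' deposited denominator (0.99). That denominator is larger and was not rescaled, so CPM are smaller and the added 1 weighs more. With the GC trend subtracted 2, 2, 2 and 3 of the 9 were higher from 6 h on. STEAP1, STEAP2 and STEAP4 were higher from 6 h on, TFRC from 12 h, and IREB2 at 6 and 48 h. STEAP3 was the lower gene at 24 and 48 h and IREB2 at 12 h. IREB2 lies in a chromosome region where most genes were lower in the 12 h library, as described below. Among genes placed outside chromosome 4 and distal chromosome 15, 3.86% were called lower at 12 h. Of all genes called, 46.4% were higher at 3 h and 49.3% at 24 h, which became 57.6 and 64.6% with libraries scaled by the trimmed mean of M values, and 62.5% at 24 h by the median of ratios. All 9 passed the count minimum, STEAP4 through its DHT libraries alone, since it had 19 counts at 0 h. All 5 comparisons use the same 0 h library, and a change in RNA per cell and a change in the makeup of the culture cannot be told apart in such bulk samples.

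STEAP4 had the widest range of the 9 genes. Its level was 1.44 CPM at 0 h and then 3.97, 35.2, 98.0, 319 and 344 CPM at 3, 6, 12, 24 and 48 h, from 19, 56, 472, 1336, 6570 and 5178 counts. Every DHT library was above the untreated one and each was above the one before it. The steepest step was from 3 to 6 h, 8.87-fold (6.71 to 11.9), followed by 2.79-fold (2.51 to 3.10) from 6 to 12 h and 3.26-fold (3.07 to 3.45) from 12 to 24 h. Between 24 and 48 h the ratio was 1.08 (1.04 to 1.12), so the level had nearly levelled off. Among the filtered genes its log2 change ranked first from the top at 12, 24 and 48 h, second at 6 h, and at rank 79 at 3 h. The 0 h level rests on so few counts that the 48 h ratio of 239 has an interval from 153 to 397.

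STEAP1 followed a step rather than a climb, at 56.6, 60.7, 208, 181, 177 and 168 CPM in the order of time. The 4 libraries from 6 h on lay together and far above those at 0 and 3 h. At 3 h its ratio to 0 h was 1.07 with an interval from 0.971 to 1.19 that includes 1, and at 6 h it was 3.68 (3.39 to 3.996). After its highest level at 6 h, the 12 h library was at 0.867 times that level (0.821 to 0.915), while the steps from 12 to 24 h and from 24 to 48 h, 0.978 (0.929 to 1.03) and 0.951 (0.904 to 1.001), were within counting error. Reads of STEAP1 are uncertain to the extent that its near copy STEAP1B, which has no line of its own in the table, shares them.

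STEAP2 moved in the same step, from 287 CPM at 0 h and 246 CPM at 3 h to 1218 CPM at 6 h, then 853, 871 and 1106 CPM at 12, 24 and 48 h. At 3 h it lay slightly below the untreated library, with a ratio of 0.857 (0.818 to 0.897), a log2 change of -0.22 that turned to 0.13 with the GC trend subtracted, and by 6 h it had gone up 4.95-fold (4.77 to 5.14). The 12 and 24 h libraries agreed within counting error, at a ratio of 1.02 (0.997 to 1.05), and lay below those at 6 and 48 h. The count of STEAP2 over that of STEAP1 in the same library, which no scaling of the libraries touches, was 5.07 at 0 h, 4.05 at 3 h, 5.84 at 6 h, 4.72 at 12 h, 4.93 at 24 h and 6.58 at 48 h. That ratio thus stayed between 4.05 and 6.58, and the log2 changes at 24 h were 1.62 for STEAP1 and 1.60 for STEAP2.

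STEAP3 went the other way. Its level was 39.6, 38.8, 23.9, 28.8, 18.8 and 18.4 CPM in the order of time. The untreated and 3 h libraries were alike, at a ratio of 0.979 (0.866 to 1.11), and the 4 later libraries were below both, lowest at 24 and 48 h, which did not differ beyond counting error. The ratios to 0 h were 0.475 (0.415 to 0.542) at 24 h and 0.465 (0.400 to 0.539) at 48 h, log2 changes of -1.04 and -1.06. These lie just past 2-fold: scaled by the median of ratios they were -0.89 and -0.99, by the trimmed mean of M values -0.86 and -0.99, and with the GC trend subtracted -0.61 and -0.64, each short of the rule.

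Divided by transcript length, which allows levels of different genes to be set side by side, STEAP1 and STEAP2 shared the top of the family throughout. At 0 h they stood at 43.1 (40.1 to 46.3) and 41.8 (40.5 to 43.1) CPM per kilobase, which counting error does not separate, STEAP3 stood at 9.29 and STEAP4 at 0.144. At 24 h STEAP1 was at 135, STEAP2 at 127, STEAP4 at 32.0 and STEAP3 at 4.41, so STEAP3 and STEAP4 had changed places. STEAP4 was still below STEAP3 at 6 h, at 3.52 (3.21 to 3.86) against 5.60 (5.002 to 6.25), and above it at 12 h, at 9.82 (9.30 to 10.4) against 6.77 (6.11 to 7.47). Of the length-scaled signal of all 4 genes, STEAP4 made up 0.153% at 0 h and 10.7% at 24 h, and STEAP3 9.85% and 1.48%. The summed counts of the family were 385 CPM at 0 h, 349 CPM at 3 h and 1161 to 1637 CPM from 6 h on. Lengths are those of the listed transcripts in a later annotation, and the lengths the authors used were not given in the sources used here.

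**Figure D1:**
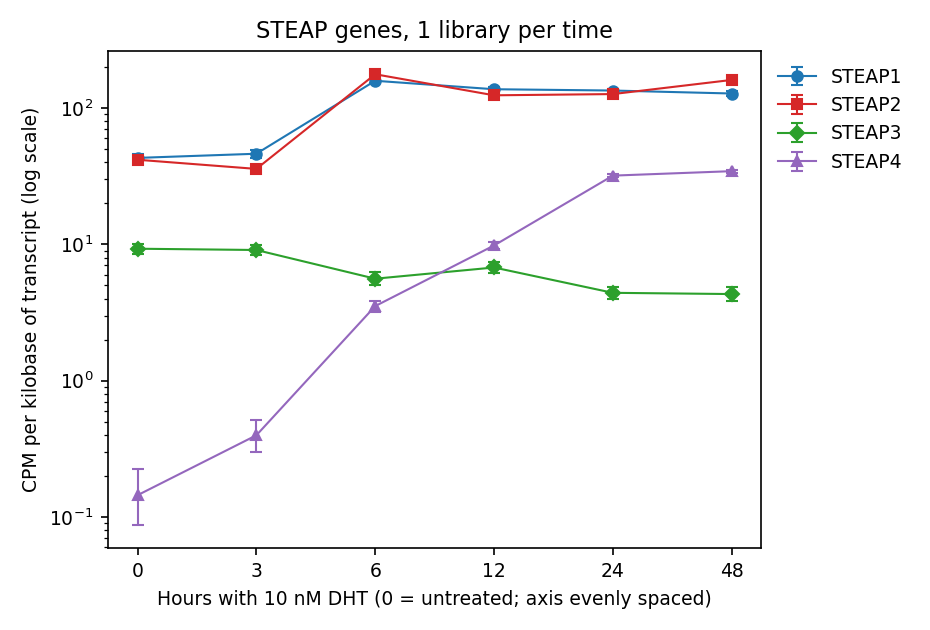
Levels of the 4 STEAP genes in CPM per kilobase (log axis) at each time, 1 point per library, with 95% Poisson bars that cover counting error alone. STEAP1 and STEAP2 step up between 3 and 6 h, STEAP4 climbs from 0.144 to 34.5, and STEAP3 goes from 9.29 to 4.32.

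STEAP4, STEAP1 and STEAP2 lie near each other on chromosome 7, and their start-site regions are shown because these 3 genes were higher together. Each line gives the 250 bases before the start site from RefSeq on GRCh38.p14, 5′ to 3′ on the gene's own strand, at chr7:88306895-88307144 (minus strand) for STEAP4, chr7:90154219-90154468 (plus strand) for STEAP1 and chr7:90211490-90211739 (plus strand, the more upstream of its 2 starts) for STEAP2. Capitals mark GGGCGG on either strand, the core of the GC box bound by Sp1-type factors.
STEAP4: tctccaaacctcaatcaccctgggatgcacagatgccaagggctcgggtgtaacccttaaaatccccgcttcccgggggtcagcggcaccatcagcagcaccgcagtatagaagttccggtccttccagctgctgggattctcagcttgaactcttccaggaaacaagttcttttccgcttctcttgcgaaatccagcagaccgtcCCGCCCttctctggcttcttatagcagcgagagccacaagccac
STEAP1: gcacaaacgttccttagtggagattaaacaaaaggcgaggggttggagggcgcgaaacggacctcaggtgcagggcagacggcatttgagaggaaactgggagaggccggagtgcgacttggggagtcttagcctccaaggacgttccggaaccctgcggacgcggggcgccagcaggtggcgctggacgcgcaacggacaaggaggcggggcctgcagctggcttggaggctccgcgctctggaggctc
STEAP2: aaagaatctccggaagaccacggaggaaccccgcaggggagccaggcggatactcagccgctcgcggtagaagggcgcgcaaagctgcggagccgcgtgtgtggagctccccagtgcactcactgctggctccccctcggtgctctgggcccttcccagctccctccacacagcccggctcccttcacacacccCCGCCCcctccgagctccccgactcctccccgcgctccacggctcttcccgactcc
The GC box core occurred once each in the STEAP4 and STEAP2 windows and not in that of STEAP1, and 42.6% of the 35116 windows of the table hold it. TGTTCT, the half-site of the androgen response element, was in none of the windows of the 4 STEAP genes on either strand, and in 12.4% of all windows. Such matches, and their absence from these letters, describe the sequence and say nothing of binding. The windows of STEAP4, STEAP1 and STEAP2 were 55.6, 64.4 and 69.6% G or C, whereas their transcripts were 38.9, 42.5 and 36.9%.

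Position was not used to choose the genes, so the 5 measured genes on either side of the chromosome 7 group were examined in the same way. Of these 10 neighbours, 0, 5, 6, 5 and 7 were called higher in the order of time and 0 lower, beside the shares of all genes given above (10.5% higher and 10.8% lower at 24 h). With the GC trend subtracted 0, 2, 2, 3 and 3 were higher and 0, 1, 0, 1 and 2 lower (7.08% and 6.55% of all genes at 24 h). Directly beyond STEAP2 lies FLJ21062 (now CFAP69), a gene of the sperm flagellum, which was at 4.86 CPM at 0 h and 24.2 CPM at 24 h, with log2 changes of -0.51, 2.37, 2.39, 2.11 and 2.94 in the order of time (1.44 at 24 h after subtraction of the trend). CLDN12, a claudin of cell junctions, was at 56.1 and 232 CPM at 0 and 24 h, a change of 2.03 (1.32 after subtraction of the trend), and CROT, a carnitine acyltransferase of peroxisomes, at 11.8 and 38.2 CPM, a change of 1.61 (1.07). GTPBP10 and PFTK1 (now CDK14) were also past 2-fold at 24 h, at 1.14 and 1.08, but at 0.25 and 0.53 with the trend subtracted. SRI, a calcium-binding protein and the nearest measured gene to STEAP4, stood at -0.13, and its value after subtraction was -0.83. ADAM22 was at -0.53 and -1.12, FZD1 at 0.49 and 0.53, SLC25A40 at 0.56 and -0.41, and DBF4 at 0.44 and -0.12, the second value of each with the trend subtracted.

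Around STEAP3 on chromosome 2, 4 of 10 neighbours were called higher at 6 h and 2 each at 12, 24 and 48 h, and 0 were called lower at any time, beside the shares of all genes given above (10.5% higher and 10.8% lower at 24 h). With the GC trend subtracted 2 were higher at each time from 6 h on and 1 was lower, at 6 h (7.08% and 6.55% of all genes at 24 h). DBI, which encodes an acyl-CoA-binding protein, went from 37.0 to 351 CPM, a log2 change of 3.21 (3.37 after subtraction), and LOC130355 (now C2orf76), which lies between STEAP3 and DBI, had 1.52 (1.35). On the same side TMEM177, a mitochondrial protein gene, had log2 changes of -0.32, -0.78, -0.53, -0.88 and -0.83 in the order of time, beside -0.03, -0.71, -0.44, -1.04 and -1.06 for STEAP3 itself. PTPN4, a tyrosine phosphatase, had 0.46 at 24 h (-0.31 after subtraction) and EPB41L5 0.65 (0.39). On the other side INSIG2, CCDC93, DDX18, DPP10 and ACTR3 lay between -0.51 and 0.35 at 24 h, and between -0.69 and -0.53 after subtraction.

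TFRC, the receptor for iron-loaded transferrin, was higher in each DHT library than in the untreated one. Its level was 124 CPM at 0 h and 171, 192, 310, 287 and 361 CPM at 3, 6, 12, 24 and 48 h. The libraries at 12 to 48 h stood apart from the earlier ones, and that at 24 h lay a little below its neighbours. Already at 3 h the ratio to 0 h was 1.38 (1.30 to 1.47), rank 473 among the 11916 filtered genes, and at 48 h it was 2.92 (2.76 to 3.09). With the GC trend subtracted the log2 changes of 0.46, 0.63, 1.32, 1.21 and 1.54 became 0.65, 0.02, 0.81, 0.88 and 1.09, so the receptor passed 2-fold at 48 h alone.

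SLC11A2, which carries reduced iron across the endosomal membrane, moved less. It stood at 107, 103, 125, 143, 147 and 176 CPM in the order of time. Only the 3 h library was not above the untreated one, at a ratio of 0.964 (0.895 to 1.04), and the highest ratio, at 48 h, was 1.64 (1.54 to 1.75). Its log2 changes were -0.05, 0.22, 0.41, 0.46 and 0.71, under 2-fold at every time, and 0.11, -0.32, -0.04, 0.18 and 0.34 with the GC trend subtracted, which turned the first 3. TFRC over SLC11A2 was taken as a ratio of counts in the same library, not divided by transcript length. It was 1.15 (1.07 to 1.24) in untreated cells, and reached 2.18 (2.06 to 2.30) at 12 h and 2.05 (1.96 to 2.15) at 48 h.

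FTH1, the ferritin heavy chain with the ferroxidase site, was the most abundant of the 9 genes per length, and in CPM it stood at 931, 1142, 862, 895, 798 and 1484 in the order of time. The 3 and 48 h libraries were above the untreated one and those at 6, 12 and 24 h below it. The ratio was 1.23 (1.20 to 1.26) at 3 h, 0.857 (0.837 to 0.878) at 24 h and 1.59 (1.56 to 1.63) at 48 h, after a step of 1.86-fold (1.82 to 1.90) between 24 and 48 h. No FTH1 value reached 2-fold from 0 h, and with the GC trend subtracted its log2 changes were 0.31, -0.14, -0.08, -0.07 and 0.86 in the order of time.

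FTL, the light chain, which helps form the iron core, stood at 324, 321, 249, 224, 172 and 235 CPM. The first 2 libraries agreed within counting error, at a ratio of 0.993 (0.952 to 1.04), and the other 4 were lower, the 24 h library most, at 0.531 times the untreated level (0.508 to 0.555). That is a log2 change of -0.91, short of 2-fold, and -0.50 with the GC trend subtracted. Both ferritin genes have many processed pseudogenes in the genome, and how the counting placed reads that match them was not given in the sources used here, so their values are uncertain to that extent.

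Ratios of counts within a library do not depend on how libraries are scaled, although they keep any effect of GC content. They are not divided by transcript length, so they show a course in time and not which gene stood higher. Per kilobase TFRC was below FTL in each library, at 57.0 against 196 CPM at 24 h. FTH1 over FTL was 2.88 (2.78 to 2.98) at 0 h, 3.55 at 3 h, 3.46 at 6 h, 3.99 at 12 h, 4.64 at 24 h and 6.31 (6.09 to 6.54) at 48 h. As counted, every DHT library thus had more heavy chain per light chain message than the untreated one. With the GC trend subtracted this did not hold at 6 h, where the log2 changes were -0.14 for FTH1 and -0.10 for FTL. At 3, 12, 24 and 48 h the change of FTH1 stayed above that of FTL. TFRC over FTL, the message of uptake over that of storage, was 0.382 (0.360 to 0.404) at 0 h, 0.531 at 3 h, 0.772 at 6 h, 1.38 at 12 h and 1.67 (1.60 to 1.74) at 24 h, with 1.54 at 48 h. TFRC over FTH1 was 0.133 (0.126 to 0.140) in untreated cells, 0.149 at 3 h, 0.223 at 6 h, 0.347 at 12 h, 0.359 (0.349 to 0.370) at 24 h and, lower again, 0.243 (0.236 to 0.251) at 48 h, when FTH1 was at its highest.

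**Figure D2:**
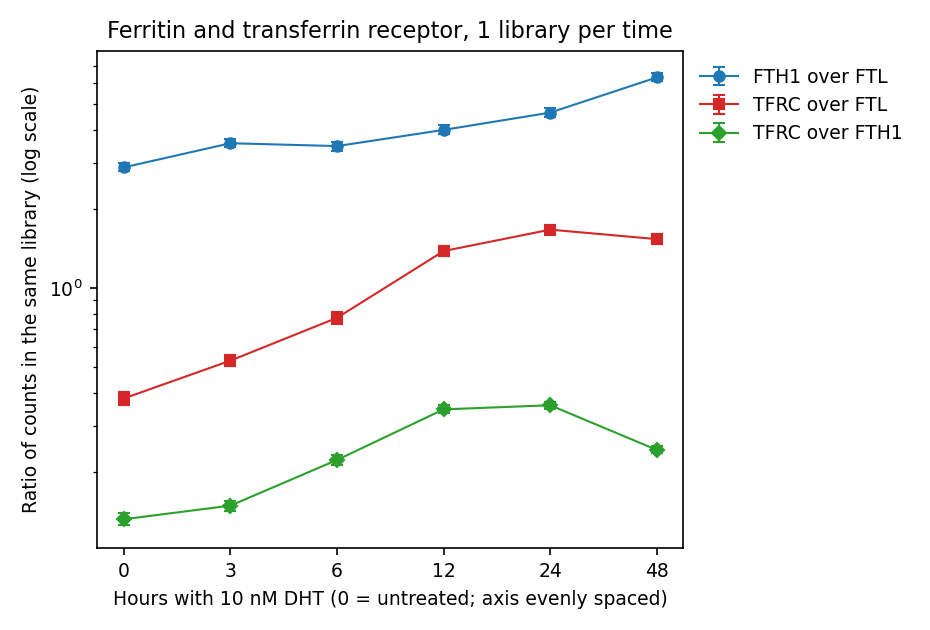
Ratios of counts of 2 genes within the same library (log axis) at each time, 1 point per library, with 95% binomial bars for counting error. FTH1 over FTL goes from 2.88 to 6.31 between 0 and 48 h, and TFRC over FTL from 0.382 to 1.54. Counts are not divided by transcript length, so a ratio of 1 does not mean equal levels.

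Iron-responsive elements, the stem-loops that iron regulatory proteins bind, are a sequence feature that TFRC and the ferritins share. A search of the listed transcripts for an unpaired C followed by 5 bases, the loop CAGTGN with any base but G at its end, and 5 bases that pair with the first 5 (G with T allowed), found 4 in TFRC, 1 in FTH1, 1 in FTL and 0 in the other 6 genes. The search took only the listed transcript of each gene and only fully paired stems of this form. It would miss elements of another shape or on other transcripts, so a 0, as for SLC11A2, does not show absence. At least 1 transcript of 214 of 19669 protein-coding genes (1.09%) in GENCODE 29 holds this pattern on its own strand. The 30 bases around each are printed 5′ to 3′ with the loop in capitals (GRCh38). They lie in exon 1 of 4 of FTH1 at chr11:61967573-61967602 (minus strand, 5′ UTR), in exon 1 of 4 of FTL at chr19:48965335-48965364 (plus strand, 5′ UTR) and in exon 19 of 19 of TFRC (minus strand, 3′ UTR) at chr3:196050978-196051007, chr3:196050574-196050603, chr3:196050509-196050538 and chr3:196050462-196050491.
FTH1: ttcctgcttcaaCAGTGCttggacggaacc
FTL: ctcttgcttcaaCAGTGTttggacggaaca
TFRC 1: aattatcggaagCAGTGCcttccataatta
TFRC 2: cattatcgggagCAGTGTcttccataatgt
TFRC 3: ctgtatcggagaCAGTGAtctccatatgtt
TFRC 4: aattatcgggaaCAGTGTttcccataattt
The ferritin elements sit ahead of the coding sequence and those of TFRC behind it. As measured, TFRC was above its untreated level at all 5 times and FTH1 on either side of its own. FTL was between 0.531 and 0.993 times its untreated level, the latter at 3 h and within counting error. With the GC trend subtracted the log2 changes of TFRC were 0.65, 0.02, 0.81, 0.88 and 1.09 in the order of time. Those of FTL were -0.02, -0.10, -0.29, -0.50 and -0.05. Whether the elements bear on these levels was not tested. Messenger RNA levels alone were measured, so translation of ferritin was not.

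IREB2, whose product binds these elements, had the most irregular course. Its level was 44.1, 37.5, 121, 14.6, 79.5 and 93.6 CPM in the order of time. The libraries at 6, 24 and 48 h were above the untreated one, and that at 12 h was below all others. IREB2 lies on the distal part of chromosome 15, and in the 12 h library most genes there and on chromosome 4 were far lower than at 0 h: 89.9% of 554 filtered genes of both regions were called lower at 12 h, against 3.86% of the 11070 genes placed elsewhere. Relative to the mean of the 6 and 24 h libraries, 14.5% of the IREB2 level was left at 12 h, and over 165 genes of distal chromosome 15 the median left was 8.04%, and between percentiles 10 and 90 it ran from 0.289 to 22.4%. The 12 h value of IREB2 is thus within the range of its chromosome region, and its own course through 12 h cannot be read from these data. Without that library the ratios to 0 h were 0.850 (0.754 to 0.958), 2.75 (2.50 to 3.03), 1.80 (1.64 to 1.99) and 2.12 (1.93 to 2.34) at 3, 6, 24 and 48 h. With the GC trend subtracted the log2 changes of 1.44, 0.84 and 1.07 at 6, 24 and 48 h became 0.37, 0.14 and 0.04, and -0.23 at 3 h turned to 0.09.

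**Figure D3:**
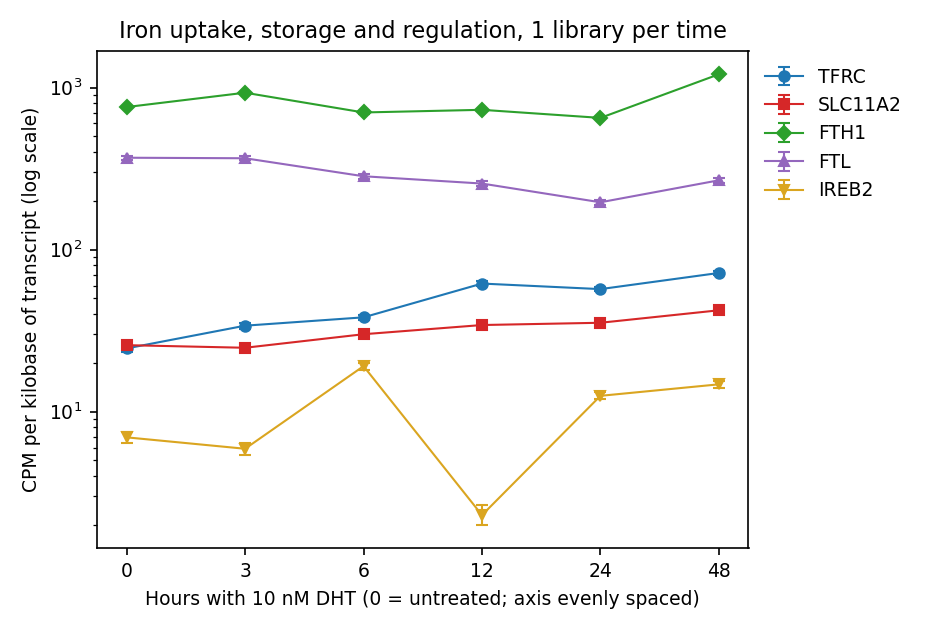
Levels of TFRC, SLC11A2, FTH1, FTL and IREB2 in CPM per kilobase (log axis) at each time, 1 point per library, with 95% Poisson bars that cover counting error alone. FTH1 stays above the others at 649 to 1207, TFRC moves from 24.5 to 71.7, and IREB2 drops to 2.30 in the 12 h library alone.

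GC content bears on more than IREB2. The transcripts of STEAP2 (36.9% G or C), IREB2 (38.3%), STEAP4 (38.9%), STEAP1 (42.5%), TFRC (42.6%) and SLC11A2 (43.3%) lie at or below percentile 27.9 of filtered genes by GC content, FTH1 (50.1%) is near the middle, and FTL (56.3%) and STEAP3 (56.9%) are above it. The genes with the lower GC content are those whose level was higher at 48 h, FTH1 apart, and both genes with the higher GC content were lower. With the trend subtracted, 1, 2, 2, 2 and 3 of the 9 were called higher at 3, 6, 12, 24 and 48 h, against 0.946, 3.76, 4, 7.08 and 7.25% of the 11519 genes whose GC content was found, and 0, 0, 1, 0 and 0 lower, against 0.425, 1.55, 7.37, 6.55 and 4.79%. The lower call at 12 h was IREB2, and the 12 h share also includes the other genes of the affected chromosome regions. STEAP4 (6.38 at 24 h) and STEAP1 (1.28) stayed past 2-fold at each time from 6 h on, and STEAP4 also at 3 h (1.33). STEAP2 did not, at 0.87, 0.60, 0.80 and 0.74 from 6 to 48 h, although it stayed above 0 at each time. The source of the GC trend was not tested.

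**Figure D4:**
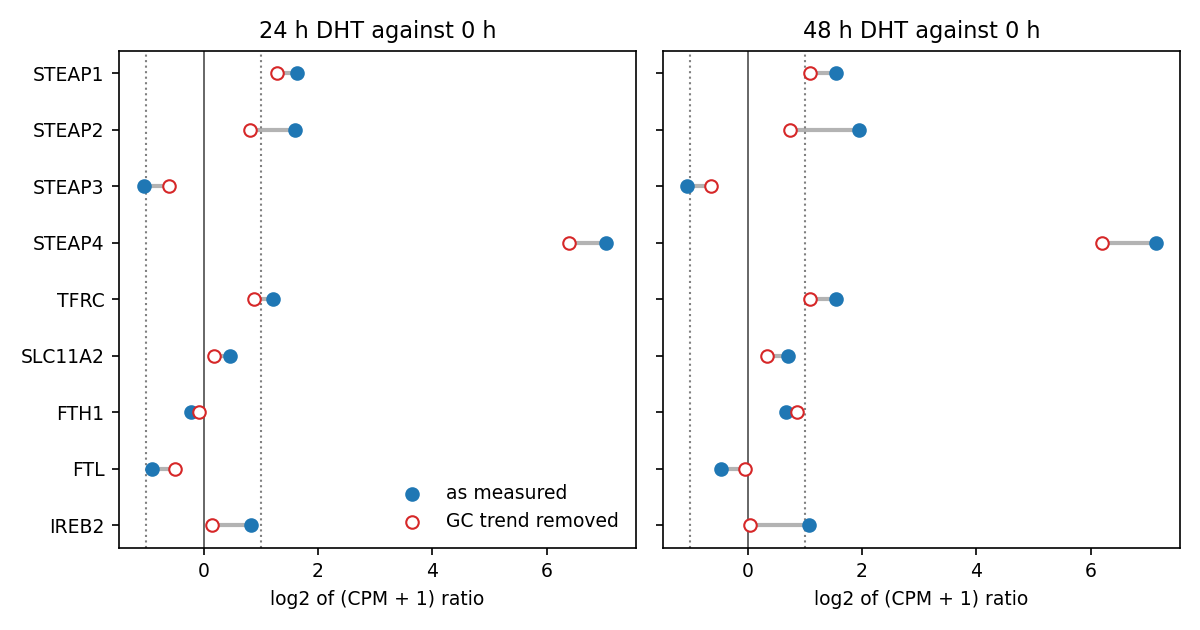
The log2 change of each of the 9 genes at 24 h and 48 h against 0 h, as measured (filled) and with the trend on transcript GC content subtracted (open), with dotted lines at 2-fold. STEAP4 and STEAP1 remain past the line in both panels, while STEAP2 moves from 1.60 to 0.80 at 24 h and IREB2 from 1.07 to 0.04 at 48 h.

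Beyond the 9 genes, 85 other genes of iron and copper handling were in the table and 74 of them passed the count minimum. Of these, 0 were called at 3 h, 4 were higher and 1 lower at 6 h, 8 higher and 3 lower at 24 h and again 8 and 3 at 48 h. At 12 h, outside the affected regions, 6 of 70 were higher and 1 lower. With the GC trend subtracted 6 were higher and 1 lower at 24 h and 5 and 1 at 48 h, among them BMP6 (1.14 at 24 h) and CISD1 (-1.19 and -1.58), both picked after their values were seen. The median log2 change of the 74 genes at 24 h was -0.04, beside -0.09 over all filtered genes. The shares of all filtered genes called, given above, are the background of these counts and of those per list below. As measured they were 10.5% higher and 10.8% lower at 24 h, and 15 and 7.33% at 48 h. With the trend subtracted they were 7.08 and 6.55% at 24 h, and 7.25 and 4.79% at 48 h. ABCB10, a mitochondrial transporter of heme synthesis picked after its values were seen, was the 1 gene called at 6 h (1.12, or 0.75 after subtraction) that is not named with its list below.

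Of 12 measured heme genes, 2 were called higher and 0 lower at both 24 and 48 h, beside 10.5 and 15% of all filtered genes called higher. HMOX1 is the inducible heme oxygenase that frees iron from heme. It was at 46.1 CPM at 0 h, 34.1 CPM at 3 h, 27.4 CPM at 6 h, 35.0 CPM at 12 h, 142 CPM at 24 h and 125 CPM at 48 h. It was thus below the untreated library at 3, 6 and 12 h and above it later, at 3.08-fold (2.82 to 3.36) at 24 h. Its log2 change at 24 h, 1.60, became 2.07 with the GC trend subtracted. FECH, ferrochelatase, which inserts iron in the last step of heme synthesis, went from 158 CPM to 287, 383, 360 and 353 CPM at 6, 12, 24 and 48 h, log2 changes of 1.18 at 24 h and 1.12 after subtraction. The other 10 measured heme genes were within 2-fold at 24 and 48 h, UROS being the farthest at 24 h with -0.72 (-0.32 after subtraction).

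On the uptake list, EXOC6, a part of the exocyst that returns transferrin receptors to the surface, was at 5.99, 27.4, 17.4, 17.9 and 26.5 CPM at 0, 6, 12, 24 and 48 h. Its log2 change of 1.44 at 24 h was 0.62 with the GC trend subtracted. SLC11A1, the iron transporter known from macrophages, was lower, at 16.2 CPM at 0 h against 6.41 and 5.65 CPM at 24 and 48 h (-1.21 and -1.37, or -0.71 and -0.91). TFR2, the second transferrin receptor, stood at -0.86 at 24 h (-0.29 after subtraction), with 49 counts at 0 h and 33 at 24 h. CYBRD1, the duodenal ferric reductase, had at most 7 counts in any library, and TF itself at most 5.

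Among storage and export genes, 0 of 7 were past 2-fold at 24 h as measured and 1, HPX, with the GC trend subtracted. PCBP2, an iron chaperone and RNA-binding protein, was at 904 CPM at 0 h, 519 CPM at 24 h and 433 CPM at 48 h, with log2 changes of -0.80 and -1.06, and -0.58 and -0.79 after subtraction, short of 2-fold. HEPH, a ferroxidase, was at -0.84 at 24 h (-0.73 after subtraction) with 47 counts at 0 h and 32 at 24 h. HPX, which binds free heme, was at 1.13 at 12 h and 0.64 at 24 h (1.34 and 1.02), from 10 counts at 0 h to 39 and 36. SLC40A1, the iron exporter ferroportin, had 5 to 17 counts and fell under the count minimum.

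Among regulators, BMPR1A, a receptor of the hepcidin pathway, was at 5.61, 15.3, 12.8, 17.9 and 22.1 CPM at 0, 6, 12, 24 and 48 h, with log2 changes of 1.51 and 1.81 at 24 and 48 h and 1.001 and 1.10 after subtraction. HIF1A, the hypoxia factor, had 1.35 and 1.67 (0.58 and 0.51), and its relative EPAS1, whose message has a known iron-responsive element, -1.05 and -0.21 (-0.79 and 0.09). SMAD4 stood at 1.04 at 24 h and 0.73 at 48 h (0.57 and 0.09), so its call and that of EPAS1 ended with the trend subtracted. HAMP, hepcidin itself, had at most 1 count in any library. FBXL5, the iron-sensing partner that marks the IREB2 product for degradation, was within 2-fold at 6, 24 and 48 h (0.69, 0.37 and 0.71, or -0.16, -0.15 and -0.02 after subtraction), and at 12 h, on chromosome 4, it was at -2.75.

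In mitochondrial iron and iron-sulfur assembly, 28 of 29 genes were within 2-fold at 24 h. FDXR, ferredoxin reductase, was the other, at 61.5 CPM at 0 h and 28.6, 28.4, 19.7 and 21.4 CPM at 6, 12, 24 and 48 h (-1.60 at 24 h, -0.97 after subtraction). SLC25A37, the mitochondrial iron importer mitoferrin, stood at 0.71 at 24 h and 0.85 at 48 h (0.86 and 1.04 after subtraction), and NUBP2 at -0.65 at 24 h (0.05). Of 7 copper genes, 2 were higher at 24 h and 3 at 48 h, beside 10.5 and 15% of all filtered genes. Past 2-fold at either time were the exporters ATP7A (1.21 and 1.28) and ATP7B (1.02 and 0.59), the copper transporter SLC31A2 (0.89 and 1.01) and COX17, a copper chaperone of cytochrome oxidase (0.70 and 1.14). After subtraction 1 was higher at each of these times: ATP7B (1.26 and 0.87) at 24 h and SLC31A2 (0.94 and 1.07) at 48 h, while ATP7A was at 0.56 and 0.33 and COX17 at 0.41 and 0.75.

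**Figure D5:**
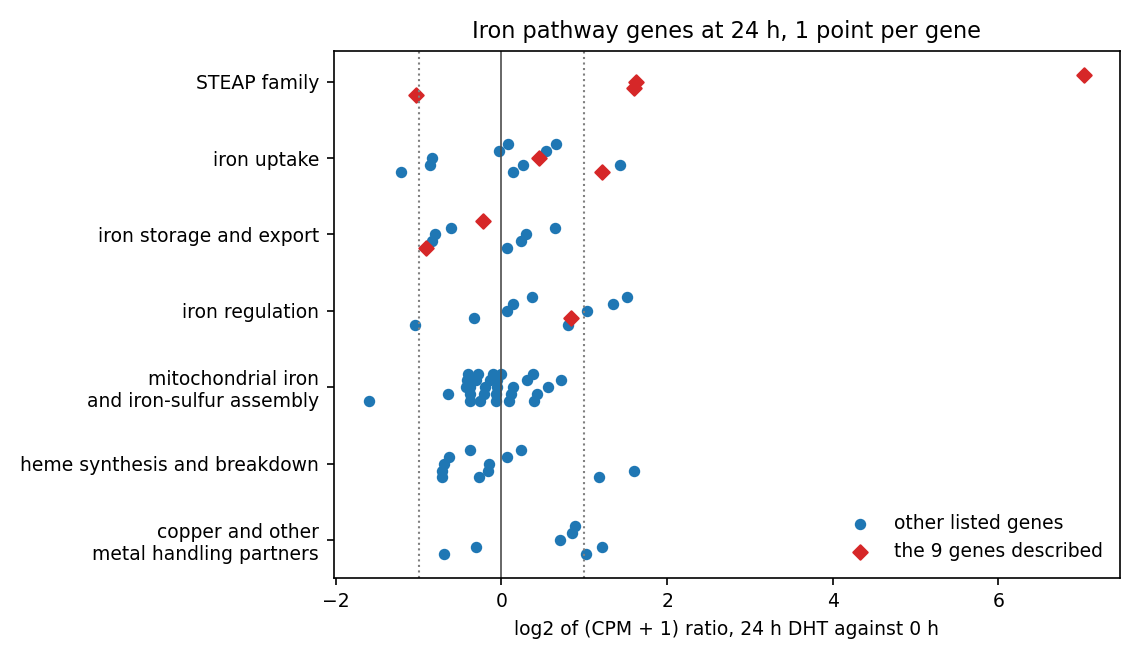
The log2 change at 24 h against 0 h of each filtered gene on the 7 iron and copper lists, 1 point per gene, with the 9 genes described as diamonds and dotted lines at 2-fold. STEAP4, at 7.03, stands far to the right of every other point, and the listed genes of mitochondrial iron lie between -1.60 and 0.71.

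For each of the described genes past 2-fold at 24 h, the 3 genes with the most similar course were taken as those with the smallest root mean square difference of log2 change over the 5 times (4 times, without 12 h, for genes of the affected regions). STEAP4 had no close match: the nearest were NCAPD3, a condensin II subunit, at 1.24, FKBP5, a co-chaperone of steroid receptors, at 1.26 and MAF, a transcription factor, at 1.80. At 24 h these had log2 changes of 5.63, 5.25 and 4.48, below the 7.03 of STEAP4. Their transcripts were 43.5 to 47.6% G or C, against 38.9% for STEAP4. STEAP2 (36.9% G or C) was matched by STXBP3, ZDHHC21 and ZNF83 at 0.0755 to 0.115, with transcripts of 33.4 to 38.4% G or C. STEAP1 (42.5%) was matched by DNM1L, which divides mitochondria, at 0.126 (42.6%), by CPEB2 at 0.129 (49.4%) and by a transcript without a symbol at 0.132. CPEB2 lies in the affected regions and was matched without 12 h, where it was at -0.76. At 0 h CPEB2 was at 1.44 CPM and the transcript without a symbol at 2.20 CPM. TFRC (42.6%) was nearest to PEA15 (0.148), LAMC1 (0.153) and RFPL2 (0.163), with transcripts of 47.6 to 52.1% G or C. RFPL2 was at 0.228 CPM at 0 h. STEAP3 (56.9%) was nearest to ALKBH4 (0.0623), PKM2 (0.0818) and COL6A1 (0.0819), with transcripts of 56.6 to 63.5% G or C. PKM2 lies in the affected regions and was matched without 12 h, where it was at -3.96. Within a difference of 0.2 lay 0 genes for STEAP4, 6 for TFRC, 23 for STEAP1, 30 for STEAP2 and 247 for STEAP3. The course of STEAP3 was thus a common one in these libraries. This difference is not scaled to the size of the change, and STEAP4 had the largest change of all filtered genes at 12, 24 and 48 h. Its lack of a near match therefore does not describe the shape of its course.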

How the data were processed

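RNA was sequenced on an Illumina GAIIx, per the labels' protocols, in 6 libraries, 1 per time. Per the submitters' processing notes the build was hg19. Aligner, counter and strand setting were not given in the sources used here, so reads of overlapping opposite-strand genes cannot be told apart. The deposited table has 1 line per RefSeq transcript, with raw counts ("tag", per the file headers), which were used, and RPM, scaled by the authors to all reads of the library ("ppm"), used as an alternative scaling. Columns were tied to samples by the time in their headers.

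Of 18051 lines 50 exact repeats were removed and counts were summed by symbol to 17990 genes; 11916 had a mean of at least 20 counts. Changes were log2 ratios of (CPM + 1) to 0 h, without a test, called from 2-fold on. Intervals were exact Poisson (levels) and exact conditional binomial (ratios), at 95%. No molecular identifiers are named, so they cover counting error only. The GC trend was a lowess curve (span 0.3) on the GC content of GENCODE 29 transcripts (GRCh38), found for 11519 filtered genes (96.7%), and was subtracted. Distal chromosome 15 runs from LCTL to the end of the arm in RefSeq gene order, a boundary set after the data were seen. Elements were sought in GENCODE 29 and promoters in RefSeq windows (GRCh38.p14), which matched 8 of the 9 genes.

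The members, the 7 iron and 5 marker lists and the alternatives were chosen with earlier results of these data known. Some marker results are not reported here. Named were the 9 members, per list the 3 largest changes at 24 h and any past 2-fold at 24 or 48 h, the 3 nearest courses and the 5 neighbours on each side. Changes and intervals were tested on simulated counts. Alternatives were the deposited denominator, median of ratios, edgeR 4.0.16 trimmed mean of M values, totals without the affected regions, pseudocounts, count minimums, fold rules, GC correction and 1 line per gene. Python 3.11.15, scipy 1.17.1 and statsmodels 0.14.6 were used.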

Additional observations from a re-analysis of the deposited data

Results flagged for a closer look

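IREB2 moved in opposite directions at neighbouring times: its log2 change from 0 h was 1.44 at 6 h and -1.53 at 12 h, with 1626 and 199 counts. The difference between these times was not tested, since each is 1 library. IREB2 lies on distal chromosome 15, where the median level left in the 12 h library was 8.04% over 165 genes, beside 14.5% for IREB2.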

How the results depend on the processing

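Of 21 calls among the 45 changes of the 9 genes, all 21 kept their direction under every alternative run, and 20 stayed past 2-fold with the deposited denominator, 19 by the median of ratios, 19 by the trimmed mean of M values, 18 with a pseudocount of 5 and 11 with the GC trend removed. Median of ratios and trimmed mean of M values raised the median of all genes at 24 h by 0.144 and 0.170, and the latter put IREB2 past 2-fold at 24 h (1.02). STEAP4 at 3 h missed 2-fold with the deposited denominator (0.99), where the added 1 CPM weighs more, and with a pseudocount of 5 (0.48). STEAP3 missed it with that pseudocount at 24 and 48 h (-0.91 and -0.93). With other pseudocounts and scalings STEAP4 at 24 h ran from 5.65 to 7.69. Counts of called members were 1, 4, 5, 5 and 6 in the order of time. They were 0 at 3 h with the deposited denominator, a pseudocount of 5 or a 3-fold rule. With the GC trend removed they were 2, 3, 2 and 3 from 6 h on, and with a 3-fold rule 2, 3 and 2 at 12, 24 and 48 h. Counts of the other iron genes were 0, 5, 7, 11 and 11. They became 9 at 6 h with a pseudocount of 0.1, 1, 3 and 7 at 6, 12 and 24 h with one of 5, and 1, 3, 7 and 6 from 6 h on with the GC trend removed. Over all 11916 filtered genes, 2076 were higher and 487 lower at 6 h with a pseudocount of 0.1. With one of 5, 1132, 809 and 847 were higher and 151, 580 and 691 lower at 6, 12 and 24 h, affected regions included. A 1.5-fold rule gave 1, 21, 19, 29 and 29 of the other iron genes, and a 3-fold rule 1, 0, 2 and 3 from 6 h on. The shares of all genes past 1.5-fold and 3-fold were not computed, so counts under these 2 rules have no background here. No paired analysis was possible because each group has 1 library. STEAP4 at 0 h rests on 19 counts, and a count of 0 allows up to 0.228 CPM there.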
